A study of Ascaridia galli and Trichostrongylus colubriformis with 4 samples.

Results

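Major sperm protein and its relatives were followed in whole worms of 2 parasitic nematodes, *Ascaridia galli* from the chicken and *Trichostrongylus colubriformis* from the sheep, both of which live in the host's gut. Members were the unigenes (assembled transcripts) whose best protein hit was named major sperm protein, MSP domain, sperm-specific class P or sperm transmembrane protein. The rule found 163 of 150798 unigenes in *A. galli* and 27 of 43810 in *T. colubriformis*. Worms were taken from intestines of slaughtered fowl and sheep and kept in a dish, in water extract made from the moss *Pottia lanceolata* in the treated group and in distilled water in the control. Each worm had 1 library of poly(A) RNA from each of these groups, 4 libraries in all. The assay concentrations in the labels were 10, 20 and 50 mg/ml, and the sources used here do not give the one used for the RNA. The labels give neither the sex nor the age of the worms, nor how many were pooled in a library. The deposited tables speak of condition A and condition B, and neither says which was extract, so each ratio is condition B over condition A and no response to the extract can be read from its sign. The order of A and B may differ between the worms.

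Nematode sperm crawl rather than swim, and they do so on filaments of major sperm protein (MSP) in place of actin. The protein is made in the male germ line in large amounts, and in *Caenorhabditis elegans* it is also released as a signal that triggers oocyte maturation, in part through an Eph receptor. The same fold, the MSP domain, occurs in proteins outside the sperm, among them the VAP proteins of the endoplasmic reticulum membrane, which bind partners through the FFAT motif. Protein databases give the name major sperm protein to many proteins that carry the domain, so the name alone does not say which of these a unigene encodes.

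With 1 library per condition there were no replicates and no test between conditions. A ratio is log2 of (B + 1) over (A + 1) in the authors' normalized counts. A member was called by size alone, at 4-fold or more, when it reached 20 normalized counts in either condition. Intervals (95%) cover counting error only. In *A. galli* 87659967 reads were recovered for condition A and 69118994 for B, and in *T. colubriformis* 91182265 and 91812201. Normalized counts also grow with transcript length, and no unigene lengths are in the tables, so levels of different members are not compared. For members made in the male germ line, fewer sperm cells and less RNA per sperm cell cannot be told apart in whole worms. The labels do not give sex, so the share of males in each library is unknown.

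In *A. galli* the members were lower in condition B almost without exception. Of 162 members that passed the minimum, 158 had a ratio below 0, where 51.6% of all 114411 unigenes did. Their median log2 ratio was -1.77, with the middle 50% between -2.12 and -1.40. Over all unigenes the median was -0.09 and the middle 50% ran from -1.10 to 1.81. The members were thus spread over 0.72 log2 units where all unigenes took 2.91, without matching for abundance. At 10000 or more normalized counts the middle 50% ran from -1.94 to -1.45 for members and -0.92 to -0.18 for all unigenes. From 1000 to under 10000 it ran from -2.26 to -1.62 and from -1.32 to -0.37. The difference in spread was thus much smaller among abundant unigenes. At least 4-fold lower were 53 members, beside 9.76% of all unigenes, and 3 were at least 4-fold higher, beside 22.7%. The share higher differed much by the species of the hit, as given below. At least 2-fold lower were 145, beside 27.3%. Among the 92 members with 1000 or more normalized counts, all 92 were below 0, beside 86.1% of all unigenes of that abundance, so the sign alone sets the abundant members little apart. Of these 29 were at least 4-fold lower, beside 8.47%, and 0 higher, beside 4.76%. The count at 4-fold depends on the scaling, because many members lie close to it. It was 23 when the libraries were scaled to equal totals, which adds 0.38 to each log2 ratio before the pseudocount. The median then was -1.38 and 156 members were below 0. At that scaling all unigenes had a median of 0.29, with 6.25% at least 4-fold lower and 43.6% below 0.

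**Figure D1:**
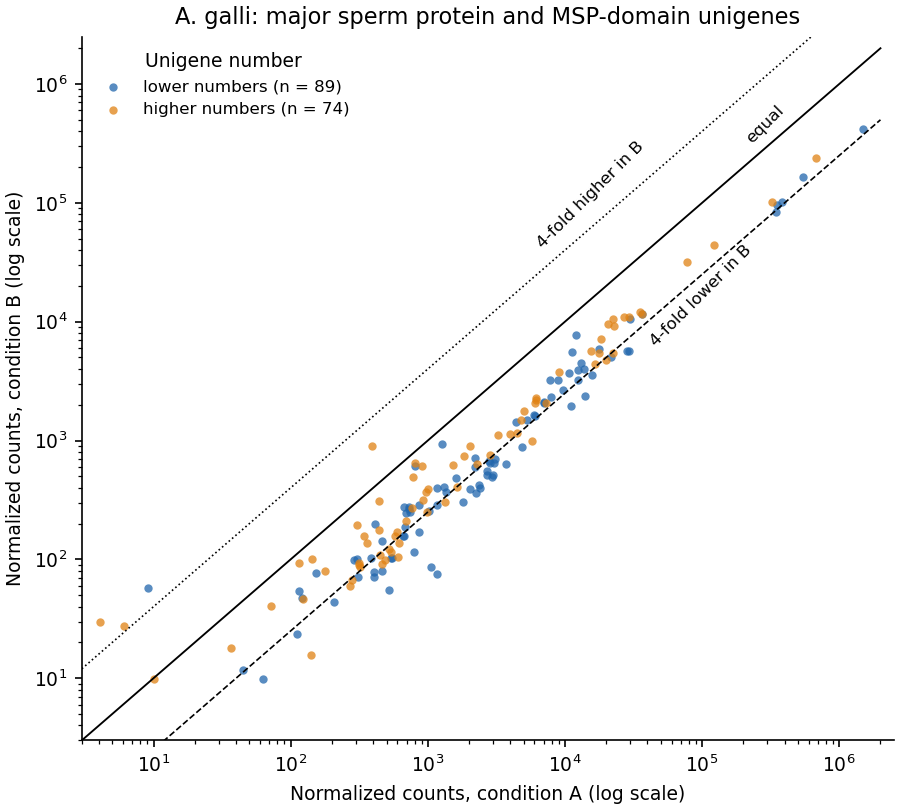
Normalized counts of the 163 *A. galli* members in condition A (x axis) and condition B (y axis), both on log scales, with lines for equal counts and for 4-fold differences; colours give the block of unigene numbers described in the text. The points form 1 narrow band near the line of 4-fold lower in condition B, and the few points above the line of equal counts are mostly at low counts.

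The members took a large share of the *A. galli* libraries. They summed to 5141051 normalized counts in condition A, 5.78% of the table (95% exact binomial interval 5.78 to 5.79). In condition B they summed to 1545918, or 2.27% (2.26 to 2.27). The summed log2 ratio was -1.73 (counting interval -1.74 to -1.73), close to the median of the single members. The 7 members with the most counts in a condition held 80.0% of the members' sum in condition A and 78.0% in condition B.

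Most of the 10 unigenes with the most counts had best hits in short MSPs of ascarid worms, and others hit filarial worms. Short MSPs are the proteins that build the sperm filaments. Unigene 95754, 94.6% identical to a 138-residue MSP of *Ascaris suum*, had 1480749 normalized counts in condition A against 417202 in B, a log2 ratio of -1.83 (counting interval -1.83 to -1.82). A second unigene with the same best hit, 74235, had 548070 and 164777, a ratio of -1.73. Both copies thus differed by about the same factor, but reads may have been divided between them. Unigene 186435, whose best hit was a 250-residue MSP of *Brugia pahangi*, had 682084 and 240309 normalized counts (-1.51). Unigene 7142, a hit in a 135-residue MSP of *Toxocara canis*, had 381514 and 101357 (-1.91). Unigene 39110, with a best hit in *Loa loa*, had 352116 and 96213 (-1.87). All of these kept a ratio of -1.12 or lower at equal totals.

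Unigene 121597 had its best hit in the beta isoform of *Ascaris suum* MSP, one of the isoforms from which the filaments are built, at 96.5% identity over 115 residues. It had 321338 normalized counts in condition A against 101224 in B, a log2 ratio of -1.67. Unigene 159677, with a 127-residue MSP of *A. suum* as its hit, had 122206 and 44538 (-1.46). Unigenes 31096 and 135174 shared a 135-residue MSP of *T. canis*. The former had 345060.3 and 84537 normalized counts (-2.03), and the latter 77682 and 31604 (-1.30). The 10 members with the most counts ranged from -2.03 to -1.30.

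Sperm-specific class P proteins, small MSP-domain proteins known from *C. elegans* sperm, were lower in condition B as well. Unigenes 213360 and 68671 were both named sperm-specific class P protein 32 and hit the same 108-residue protein of *T. canis* (gene ssp-32). The first had 29542 normalized counts in condition A against 11041 in B (-1.42), and the second had 29846 and 10636 (-1.49). Both aligned over all 108 residues at 78.7% identity. Reads may have been divided between them, so they are not 2 independent cases. Further hits carried ssp symbols under the name major sperm protein. The hits to a 173-residue ssp-19 product covered 6 unigenes with ratios from -2.56 to -1.30, and those to a 1068-residue ssp-34 product 5 unigenes from -1.84 to -1.25. Unigene 10431, a hit to another ssp-19 product, had 13991 and 2383 normalized counts (-2.55, interval -2.64 to -2.47), and the other unigene of that product, 135287, was at -1.39.

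Sperm transmembrane protein 9 is SPE-9, a protein with EGF-type repeats on the *C. elegans* sperm surface that is needed for fertilization. Unigene 1045 matched 693 residues of the 719-residue *T. canis* SPE-9 and had 3700.2 normalized counts in condition A against 639 in B, a ratio of -2.53 (-2.71 to -2.36). A second SPE-9 unigene, 192433, had 779 and 497 (-0.65; -0.26 at equal totals). The 2 unigenes of this product were thus both lower in condition B, by unequal factors.

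Medians lay close together across the kinds of MSP-domain protein that were hit. Members with a hit of up to 150 residues, the size of a lone MSP domain, had a median of -1.67 (23 members). Those with hits over 150 and up to 300 residues were at -1.81 (100) and those over 300 residues at -1.77 (39). By the cellular component given for the hit, members with a cytoskeleton term and no membrane term had a median of -1.83 (123), members with an endoplasmic reticulum membrane term -1.74 (16) and other membrane proteins -1.61 (21). The 2 members with neither term, the class P protein 32 unigenes, had a median of -1.45 and are not drawn among the component classes. Hits of at least 70% identity had a median of -1.72 (32), those from 50% to under 70% -1.76 (55) and those under 50% -1.80 (75). These classes were formed after the values were seen, and their differences were not tested.

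**Figure D2:**
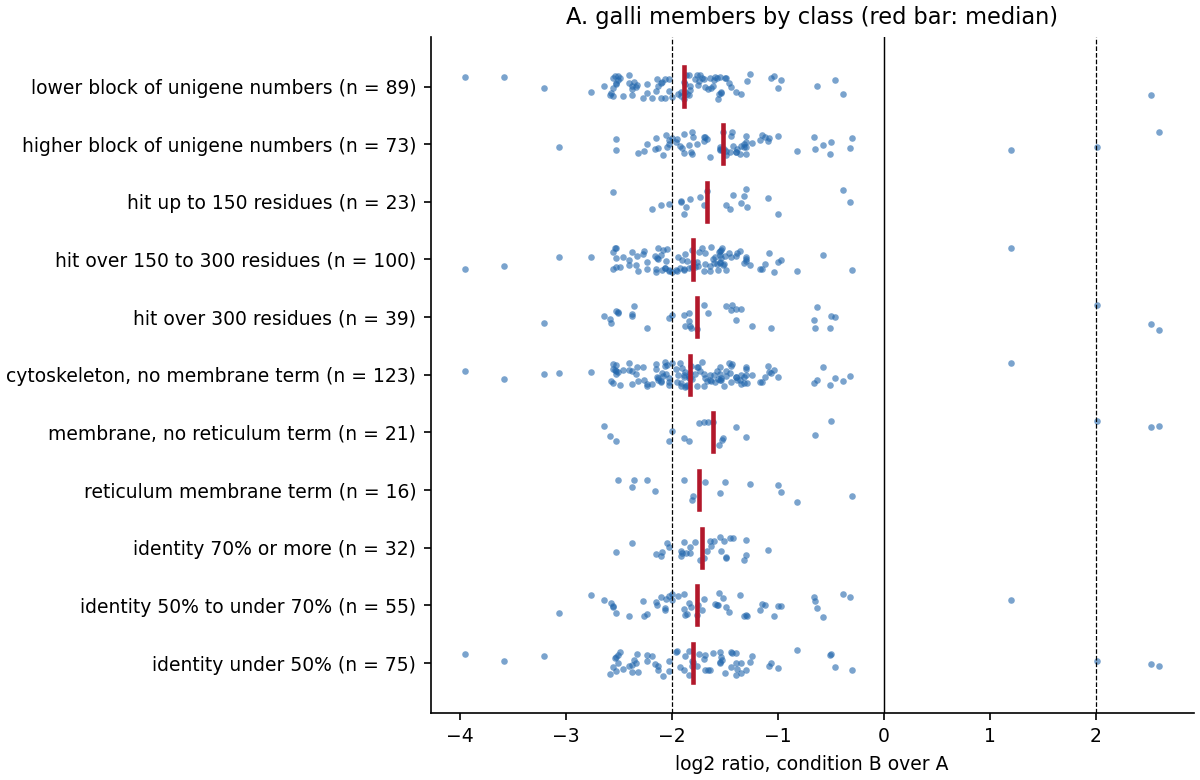
Log2 ratios of the 162 *A. galli* members that reached 20 normalized counts (x axis), each point a unigene, grouped by block of unigene numbers, length of the hit, cellular component of the hit and percent identity; the red bar is the median and dashed lines mark 4-fold. The medians of the 11 classes drawn lie between -1.88 and -1.51.

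Medians were also close between hits in ascaridid worms and hits in other nematodes, but not across all single species. Single-species medians ran from -3.77 (*Onchocerca ochengi*, 2 members) to 2.52 (*Haemonchus contortus*, 3 members). The species with the most members were *T. canis* at -1.76 (65) and *A. suum* at -1.79 (24). Members with hits in ascaridid worms, the kin of *A. galli*, had a median of -1.75 (113) and those with hits in other nematodes -1.87 (49). Among all annotated unigenes the same split gave -0.59 for 26446 ascaridid hits and 1.17 for 22052 other hits. Of the ascaridid hits 20356 were below 0, 2038 at least 4-fold lower and 780 at least 4-fold higher. For the other hits these counts were 7870, 1139 and 7769. Of the 113 members with ascaridid hits 112 were below 0, 33 at least 4-fold lower and 0 higher. Few higher members thus set them little apart from ascaridid hits in general. By abundance the medians were close down to 100 normalized counts. Members that reached 10000 normalized counts had a median of -1.65 (38), beside -0.53 for all 1279 unigenes of that abundance. Those from 1000 to under 10000 had -1.88 (54), beside -0.76 for 8950. Those from 100 to under 1000 had -1.70 (63), beside -0.70 for 33941. The 7 members under 100 had a median of -0.82, beside 0.87 for all 70241 unigenes of that abundance.

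Few *A. galli* members departed from the band. The 3 called higher all had the same best hit, a 691-residue *Haemonchus contortus* protein with a phosphatase term, at 37.1% to 40.0% identity. Unigene 76142, the one with the most counts of these, had 9.13 normalized counts in condition A against 57.2 in B. Unigene 174355 had 4.06 and 29.6, and unigene 135259 had 6.08 and 27.6. With a minimum of 100 none of the 3 was tested. Unigene 141318, a partial match of 68 residues to a 224-residue *T. canis* MSP, was the other member above 0, with 390.4 and 899 normalized counts (1.20, interval 0.96 to 1.46). Of the 9 unigenes that hit that protein it alone was higher in condition B. A pair of unigenes at 34.5% identity to an *Onchocerca ochengi* protein had the lowest ratios: unigene 39017 went from 1172 to 74.9 (-3.95, interval -4.48 to -3.49) and unigene 88136 from 1054 to 86.8 (-3.59). Ranked by the interval bound nearest 0, the 5 largest differences also included unigene 29270, a hit in *Onchocerca volvulus*, at -3.20, and unigene 62402, a hit in a 601-residue *T. canis* protein, at -2.64.

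Many *A. galli* members were near copies of each other. Of the 163, 75 shared their hit protein, its aligned positions and the percent identity with another member, in 35 sets, so the authors' counting may have divided reads between copies. Unigenes 27493 and 202547, both ssp-19 hits at 79.4% identity, had 36418 and 36442 normalized counts in condition A against 11719 and 11692 in B. Summed per best-hit protein there were 77 proteins that passed the minimum, with a median of -1.71, and 20 were at least 4-fold lower and 1 higher. The shares over all best-hit proteins are not given here, so these counts have no background beside them.

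In both tables the ratio moved with the number in the unigene's identifier. The numbers fall into a lower and a higher block, and the boundary was placed, after the data were seen, where the share of unigenes below 0 changed most. In *A. galli* the lower block ended at unigene 100753: its 52688 unigenes had a median of -0.94, and the 61723 of the higher block 1.37. The *A. galli* members were low in both. In the lower block 88 of 89 were below 0 (76.3% of all its unigenes), with a median of -1.88. In the higher block 70 of 73 were below 0 (30.5% of all its unigenes), with a median of -1.51. At least 4-fold lower were 39 in the lower block (19.7% of all) and 14 in the higher block (1.31% of all). At least 4-fold higher were 1 in the lower block (3.64% of all) and 2 in the higher block (39.0% of all). Among 34 member proteins hit from both blocks, the lower-block unigenes had the lower median in 27, and the median gap was -0.50. Over all annotated unigenes the same held for 89.7% of 8632 proteins, with a median gap of -0.82, so the members' share is not above the background. SPE-9 was one of these, with unigene 1045 in the lower and 192433 in the higher block. The sources used here do not give what the blocks stand for, and their part in the ratios of single unigenes was not tested.

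**Figure D3:**
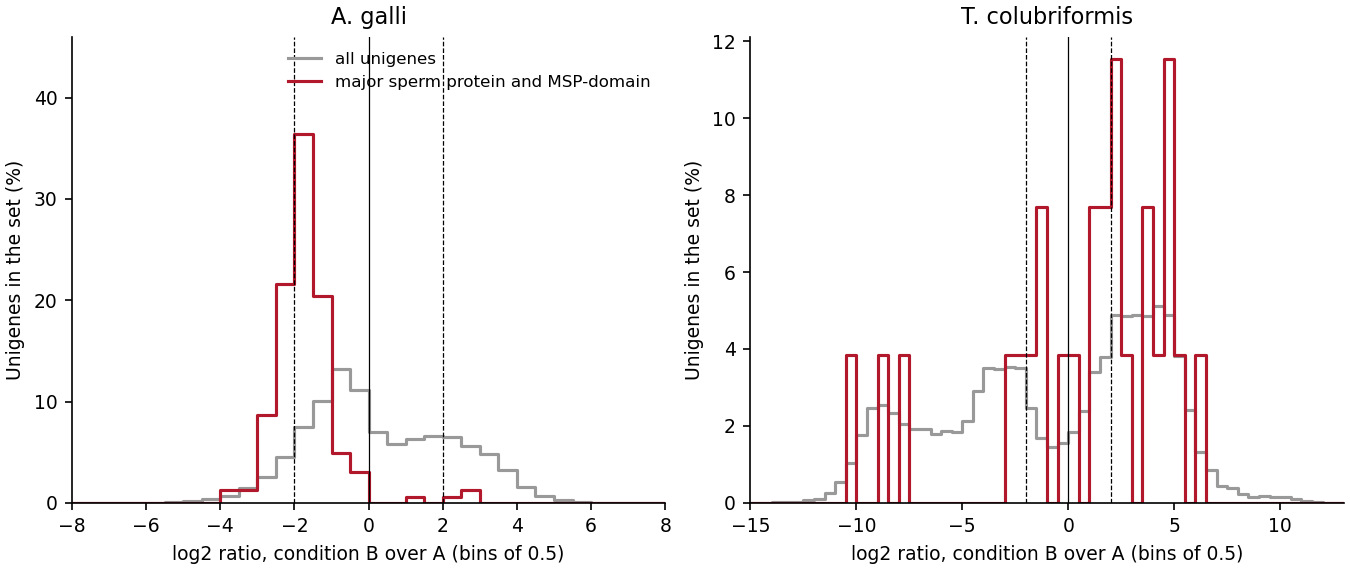
Share of unigenes (y axis, % of each set) by log2 ratio of condition B over A (x axis, bins of 0.5) for all unigenes that reached 20 normalized counts (grey) and for the members (red), in *A. galli* (162 members) and *T. colubriformis* (26 members); dashed lines mark 4-fold. In *A. galli* the members form 1 peak below 0, and in *T. colubriformis* they lie on both sides of 0, as all unigenes do.

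In *T. colubriformis* the members went both ways, and by large factors. Of 26 that passed the minimum, 5 were at least 4-fold lower in condition B, beside 41.6% of all 37391 unigenes, and 12 at least 4-fold higher, beside 39.7%. At least 2-fold lower were 8, beside 45.9%, and 9 were below 0 at all, beside 48.8%. Of the 7 members with 1000 or more normalized counts 3 were at least 4-fold lower, beside 57.3% of unigenes of that abundance, 2 were at least 4-fold higher, beside 36.3%, and 5 were below 0, beside 62.0%. Their median log2 ratio was 1.73 (middle 50% from -1.34 to 3.74), and that of all unigenes was 0.35 (-4.46 to 3.51). Members made up 0.0242% of the normalized counts in condition A (0.0238 to 0.0247) and 0.0285% in condition B (0.0280 to 0.0290). The deposited scaling differs from equal totals by 1.99 log2 units in this table, so a level of 4-fold at one scaling is about equal at the other. At equal totals the median was 3.69, with 3 members at least 4-fold lower and 17 higher. All unigenes then had a median of 2.31, with 30.1% at least 4-fold lower and 51.0% higher.

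In condition A the members' summed counts rested largely on a single unigene. Unigene 19390, 99.2% identical over all 126 residues to an MSP of *Oesophagostomum dentatum*, had 24386 normalized counts in condition A against 19 in B, a log2 ratio of -10.25 (counting interval -11.06 to -9.68). It held 55.2% of the members' counts in condition A. The summed log2 ratio was -1.76 (-1.80 to -1.72), and it was -0.60 without this unigene and 0.23 at equal totals. No direction of the *T. colubriformis* sum holds across these settings.

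Near-full-length MSPs were found with opposite ratios. Unigene 91378, named here after its values were seen, was 98.4% identical over all 126 residues to an MSP of *Oesophagostomum quadrispinulatum*. It had 8 normalized counts in condition A against 102 in B (3.52, interval 1.78 to 6.74), the reverse of unigene 19390. Unigenes 16002 and 58224 both hit a 129-residue MSP of *O. dentatum*, at 94.2% and 95.1% identity. The former had 5670.0 and 24 normalized counts (-7.83, interval -8.53 to -7.31), and the latter 92 and 488 (2.39, interval 1.80 to 3.08). For a 144-residue MSP of *O. dentatum*, unigene 1093 at 72.9% identity had 1250.0 and 2 (-8.70, interval -12.34 to -7.42) and unigene 84868 at 97.3% had 16 and 42 (1.34, interval -0.07 to 3.33). Summed over both unigenes, the 129-residue protein was at -3.49 and the 144-residue protein at -4.82.

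These pairs lay across the blocks of unigene numbers. The lower block of *T. colubriformis* ended at unigene 34722, and 95.2% of its 15028 unigenes were at least 4-fold lower in condition B. Below 0 by any amount were 99.3%, and 0.452% were at least 4-fold higher. Of the 22363 unigenes of the higher block 66.1% were at least 4-fold higher, 5.67% at least 4-fold lower and 14.9% below 0. All 5 members of the lower block were at least 4-fold lower. Of 21 in the higher block 12 were at least 4-fold higher, 0 lower and 4 below 0. Of 5 member proteins with at least 2 unigenes, 4 were hit from both blocks, and in each of these the lower-block unigene was below 0 and a higher-block one above it. The same held for most proteins of the table: of 2138 hit from both blocks, 1897 had unigenes on both sides of 0. The members' ratios in this worm thus cannot be told apart from the block of the unigene.

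**Figure D4:**
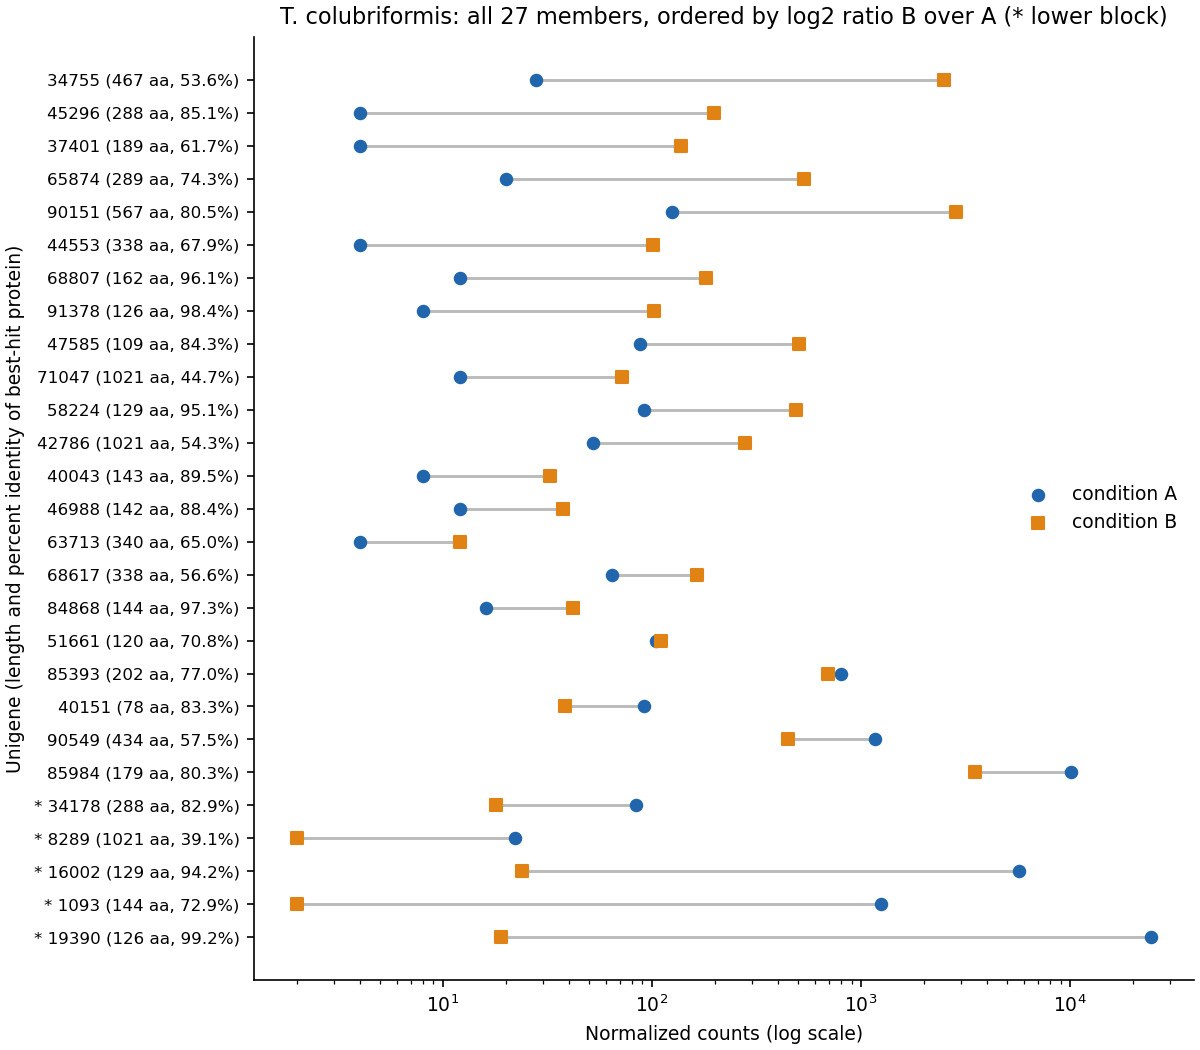
Normalized counts (x axis, log scale) of each of the 27 *T. colubriformis* members in condition A (circles) and condition B (squares), ordered by ratio, with the unigene number, the length of the hit protein and the percent identity; an asterisk marks the lower block of unigene numbers. The 5 marked unigenes lie at the bottom, lower in condition B, while most of the others are higher in condition B.

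The longer MSP-domain hits of *T. colubriformis* had 6 of 8 tested members above 0, where 17 of all 26 members were. In this class unigene 8289 was in the lower block, and the other members were in the higher block, whose unigenes were mostly above 0. Unigene 34755, a hit in a 467-residue *Necator americanus* protein, had 28 normalized counts in condition A against 2481 in B (6.42, interval 5.42 to 7.78). Unigene 90151, a hit in a 567-residue membrane protein of *Ancylostoma ceylanicum*, had 124 and 2845 (4.51, interval 4.01 to 5.08). The unigenes with hits over 300 residues had a median of 2.44 (8 members). Those with hits over 150 and up to 300 residues were at 3.82 (7), and those with hits up to 150 residues at 1.34 (11). Proteins of the VAP type gave both directions, and the direction followed the block. Unigene 34178 was in the lower block, and unigenes 45296 and 65874 were in the higher block. A 288-residue *A. ceylanicum* protein with FFAT motif binding as its function was hit by unigene 45296, with 4 and 199 normalized counts, and by unigene 34178, with 84 and 18. The former ratio, 5.32, has an interval of 3.13 to 10.94, since condition A held 2 reads. The latter was -2.16 (-3.22 to -1.24), and -0.23 at equal totals. Unigene 65874, a hit in a 289-residue protein of the endoplasmic reticulum membrane, had 20 and 534 (4.67, interval 3.51 to 6.37).

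For unigenes 85984, 90549, 85393 and 40151 of *T. colubriformis* the sign depended on the scaling. Unigene 85984, a hit in a 179-residue *H. contortus* protein, had 10088 normalized counts in condition A against 3499.5 in B (-1.53, interval -1.60 to -1.45), and 0.46 at equal totals. Unigene 90549, a hit in a 434-residue *A. ceylanicum* protein, had 1166 and 449 (-1.38), and 0.61 at equal totals. Unigene 85393, a hit in a 202-residue *H. contortus* protein, had 798 and 696 (-0.20, interval -0.43 to 0.03), and 1.79 at equal totals. Unigene 40151, an MSP domain protein by name with a 78-residue hit in *O. dentatum*, had 92 and 38.5 (-1.24, interval -2.06 to -0.46). It was at 0.73 at equal totals. Unigenes 47585 and 37401 were above 0 at each scaling run. The MSP domain protein by name with the most counts, unigene 47585, was a near-complete match to a 109-residue protein of *O. dentatum* and had 88 and 506 (2.51, interval 1.91 to 3.21). Unigene 37401 went from 4 to 137.5 normalized counts, with 2 reads in condition A (4.79, interval 2.61 to 10.42).

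Other products linked to sperm were read from lists matched by product name. In *A. galli* tau-tubulin kinases, relatives of kinases that act in *C. elegans* sperm development, had 73 unigenes at a median of -1.54, of which 13 (17.8%) were at least 4-fold lower and 0 higher, beside 9.76% and 22.7% of all unigenes. The one with the most counts, a tau-tubulin kinase 2, had 20024 normalized counts in condition A against 4162 in B (-2.27). Protein phosphatase PP1 was named in 2 unigenes, at -1.94 and -0.98. The wider list of sperm and testis names was at -0.52 (36 unigenes, 2 called lower, or 5.56%, and 1 higher, or 2.78%). In it SPE-4, a presenilin-type protein of the *C. elegans* sperm, went from 4703 to 1363 (-1.79), and round spermatid basic protein 1-like protein from 5561 to 3864 (-0.53). Motile sperm domain-containing protein 1, another MSP-domain product, had 510.1 and 319 (-0.68). Names of MSP filament partners matched 0 unigenes in either worm.

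Lists for the receiving side and for other tissues had medians from -1.26 to 0.03 in *A. galli*, and that of the sperm and testis names lay within this range. Eph receptors, which in *C. elegans* bind MSP, were at -0.42 (12 unigenes, 0 called), and the one with the most counts, ephrin type-B receptor 1, went from 1346 to 379 (-1.83). Oocyte and egg names were at -0.56 over 44 unigenes. Of these 4 were called lower and 4 higher (9.09% each), beside 9.76% and 22.7% of all unigenes. In this list chondroitin proteoglycan 2, an eggshell component, went from 2638 to 1539 (-0.78). The actin list was at -0.37 over 65 unigenes and body wall muscle at -0.54 over 109, and these became 0.01 and -0.16 at equal totals. Cuticle collagens were at 0.03 over 37, and intestinal proteases and ferritin at -1.26 over 28 (5 called lower, or 17.9%, and 1 higher, or 3.57%). In *T. colubriformis* 5 of the 11 lists had 0 matches, and tau-tubulin kinase matched 1 unigene, with 4 and 977 normalized counts and 2 reads in condition A (7.61, interval 5.45 to 13.24).

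**Figure D5:**
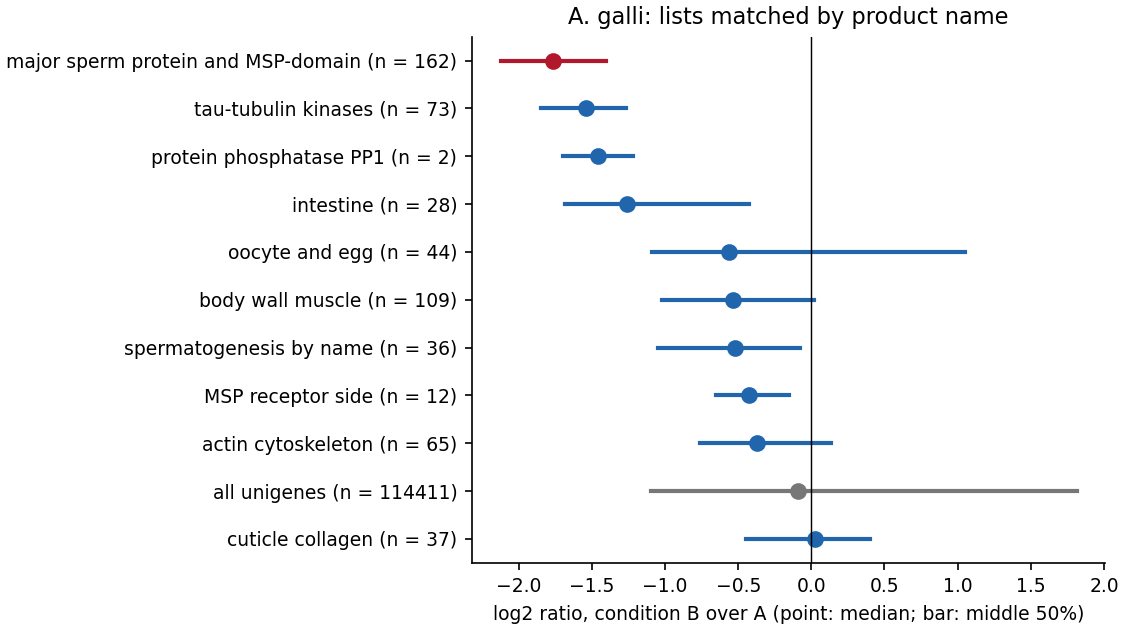
Median log2 ratio of condition B over A (points, x axis) and the middle 50% of unigenes (bars) in *A. galli* for the members (red), lists of products matched by name (blue) and all unigenes (grey), with the number of unigenes. The members are lowest at -1.77, followed by tau-tubulin kinases at -1.54, and cuticle collagens are highest at 0.03.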

How the data were processed

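Per the labels' protocols, poly(A) RNA was isolated from 110 to 350 ng of total RNA and libraries were made with 12 cycles of PCR. The submitters' processing notes name DESeq, with no version, and a stray line in the *A. galli* table names bowtie2; it was left out. Per the file headers, the authors' deposited tables give normalized counts (counts divided by a size factor, taken here as a score) of conditions A and B, a fold ratio, its log2, a p-value and adjusted p-value, and a best protein hit with percent identity. Positions and lengths of hits, other values deposited by the authors, were used to class members. The tables do not tie conditions to samples, so the planned groups could not be assigned.

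Whole reads were recovered from the step of the deposited values (100% of values up to 200 were whole within 0.1 read). Between 63.5% and 75.2% of counts were even, so reads were divided by 2 in exact (Clopper-Pearson) intervals. No count test was run, since each condition had 1 library. The pseudocount was 1, the minimum 20 normalized counts in the higher condition. The calls and intervals were run on simulated data with planted changes, counting error alone and every count even. Such data cannot show how they behave where libraries vary or counts are odd. Members and lists were chosen with earlier results of these data known. Named members were the 10 with the most counts, the first of each name group, the 5 largest rises and falls with at least 100 normalized counts by the counting bound nearest 0, and the 2 most abundant of each list; other named members are examples chosen after their values were seen. Alternatives were other scalings (totals, or the trimmed mean of M-values), pseudocount, minimum, threshold, kin hits, identity and name; blocks of unigene numbers and leaving out the largest unigene were added after the data were seen. Python 3.11.15, numpy 2.4.6, pandas 2.3.3 and scipy 1.17.1 were used.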

Additional observations from a re-analysis of the deposited data

How the results depend on the processing

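The deposited values carry counting error only as far as the single libraries show it, and no setting replaces replicates. No paired analysis was possible because each condition had 1 library and no result comes from a test. In *A. galli* the direction of the members held under each setting run, and the counts at 4-fold did not. Some settings keep fewer members than the 162 of the main one, which gave 53, and this alone lowers a count. Where no share of all unigenes stands beside a count, the main shares are not its background. At equal totals 23 of 162 members were at least 4-fold lower (6.25% of all unigenes), with a median of -1.38 and a summed log2 ratio of -1.35. With the trimmed mean of M-values the median was -1.63 and the sum -1.60. Summed per best-hit protein 20 of 77 were lower and 1 higher, and with kin hits alone 33 of 113 and 0 (sum -1.77). With identity of 70% or more 7 of 32 were lower and 0 higher (sum -1.74). At a 2-fold threshold 145 of 162 were lower (27.3% of all unigenes), and with the whole counting interval past 4-fold 29 and 0. A pseudocount of 5 left 1 higher and a minimum of 100 left 0. Without the unigene with the most counts the sum was -1.70. The lower block alone gave 1 of 89 higher, a median of -1.88 and a sum of -1.84. The higher block gave 14 of 73 lower, a median of -1.51 and a sum of -1.52.

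In *T. colubriformis* 3 members, not 5, were at least 4-fold lower at equal totals, with a pseudocount of 5, with a minimum of 100, summed per best-hit protein, or with the whole interval past 4-fold. The main count was 5 of 26 (41.6% of all unigenes), and at equal totals it was 3 of 26 (30.1%). Per protein it was 3 of 20, and a minimum of 100 also leaves fewer members. Shares over all proteins, or over all unigenes at the other settings, are not given here. At 2-fold 8 were lower. With identity of 70% or more 7 of 18 were higher, and with the whole interval past 4-fold also 7, where the main setting gave 12 of 26. The summed log2 ratio was 0.23 at equal totals, which reversed it, -0.73 with the trimmed mean of M-values, -2.19 with identity of 70% or more, -1.81 with the name major sperm protein alone and -0.60 without unigene 19390. In the lower block alone 0 members were higher, the median was -7.83, which reversed it, and the sum -8.92. In the higher block alone 0 were lower, the median was 2.39 and the sum 0.023, which reversed it. At equal totals unigenes 85984, 90549, 85393 and 40151 reversed, to 0.46, 0.61, 1.79 and 0.73, and 85393 was 0.83 with the trimmed mean. The cause of these differences was not tested.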

Other observations

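The authors' deposited table marked 55 of the 163 *A. galli* members as down in condition B, 3 as up and 105 as neutral. In *T. colubriformis* the authors' deposited table marked 5 of 27 as down, 13 as up and 9 as neutral. The shares of all unigenes with these marks are not given here. By size alone 9.76% of all *A. galli* unigenes were at least 4-fold lower and 22.7% higher. In *T. colubriformis* these shares were 41.6% and 39.7%, so many marks of either kind do not set its members apart. The lowest unadjusted p-value of a member in the authors' deposited table was 0.00545 in *A. galli* and 0.5 in *T. colubriformis*, and every member's adjusted value was 1 in both worms.

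Assembled members were often short of the full protein. The best-hit alignment covered 90% or more of the hit protein in 27 of 163 *A. galli* members and in 10 of 27 *T. colubriformis* members. The alignment ran on the reverse strand of the unigene in 81 and 7 members, so the strand of the unigenes is mixed.

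Some *A. galli* members with ssp symbols, described here after their values were seen, had unequal ratios. The 2 unigenes of a 151-residue ssp-32 hit in *Toxocara canis* were at -2.77 and -2.27, lower than the class P protein 32 unigenes at -1.49 and -1.42. The 2 unigenes of a 776-residue ssp-34 hit were at -2.51 and -1.35, the former in the lower block of unigene numbers and the latter in the higher. The part of the blocks in the difference between copies was not tested.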
